A study of Mus musculus with 6 samples.

Results

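Transcripts of titin and of 8 proteins of the Z-disc and M-band of the sarcomere were followed in hearts that lack the long non-coding RNA *Trdn-as*. The 9 genes, *Ttn*, *Nebl*, *Ldb3*, *Xirp2*, *Myoz2*, *Csrp3*, *Tcap*, *Myom1* and *Flnc*, were taken by gene symbol from a table of 21776 genes, and all 9 had a value above the filter on low values. They do not include alpha-actinin, *Actn2*, which is given with the related genes, and *Myom1* belongs to the M-band. The data were strand-specific total RNA sequencing of whole mouse hearts, 3 from mice homozygous for the *Trdn-as* knockout (KO) and 3 from WT mice. The knockout ends transcription of *Trdn-as* early, through a polyadenylation signal inserted into its exon 1. The mice derived from Cas9-edited embryonic stem cells and were crossed back to C57BL/6, so the insertion was carried by all cells, although *Trdn-as* is a transcript of cardiomyocytes. The age and litter of the sequenced mice are not given in the sources used here, and no p-value accounts for them. In the main fit, p-values draw on the spread between these hearts, with 4 residual degrees of freedom. They also draw on the spread of genes at a similar level, with 15.4 prior degrees of freedom. Fewer cardiomyocytes and less RNA per cardiomyocyte cannot be told apart in whole hearts.

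The sarcomere, the contractile unit of muscle, runs between a pair of Z-discs, where actin filaments are anchored, and has the M-band at its centre, where myosin filaments are cross-linked. Titin, a giant elastic protein, spans from the Z-disc through the I-band to the M-band and sets passive tension. Proteins bound to either end of titin hold the lattice together and take part in sensing stretch, and many of their genes are linked to inherited cardiomyopathy.

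Values are read counts divided by a size factor of each library and rounded, called normalised read counts here. *Trdn-as* was at 1, 0 and 1 in KO and at 690, 773 and 688 in WT, and *Trdn*, the gene of triadin on the opposite strand, was at 2381 to 2551 in KO and 1516 to 1541 in WT. The number of counted reads, inferred from gaps between the rounded values, was 3.15 to 3.62 M per KO library and 3.04 and 3.46 M in WT replicates 2 and 3, while WT replicate 1 was the shallowest library with 2.59 M. All 10 cardiomyocyte markers were present, at summed values of 15890 to 16758 in KO and 15937 to 20628 in WT, and of 8 skeletal muscle markers 5 had a mean under 10 and 2 were not analysed here.

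Promoter sequences are shown for *Xirp2*, *Myom1* and *Ttn*, the members with an unadjusted p under 0.05 between genotypes. Each is the stretch of 250 bases before a RefSeq transcript start (GRCm38.p6), and RefSeq windows were matched for 8 of the 9 members and not for *Tcap*. Capitals mark a MEF2 box, bound by MEF2 factors of striated muscle, or a CArG box, bound by serum response factor.
*Xirp2* (chr2:67445752-67446001, plus strand): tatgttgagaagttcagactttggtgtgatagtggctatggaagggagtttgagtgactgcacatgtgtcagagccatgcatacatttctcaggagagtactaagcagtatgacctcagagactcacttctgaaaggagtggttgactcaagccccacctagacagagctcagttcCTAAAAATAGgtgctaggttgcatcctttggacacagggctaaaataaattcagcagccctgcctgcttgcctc
*Myom1* (chr17:71019307-71019556, plus strand): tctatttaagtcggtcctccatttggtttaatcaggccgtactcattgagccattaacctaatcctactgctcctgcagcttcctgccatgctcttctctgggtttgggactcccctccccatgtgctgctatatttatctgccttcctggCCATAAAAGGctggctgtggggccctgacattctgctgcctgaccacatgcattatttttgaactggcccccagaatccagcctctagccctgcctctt
*Ttn* (chr2:76982548-76982797, minus strand): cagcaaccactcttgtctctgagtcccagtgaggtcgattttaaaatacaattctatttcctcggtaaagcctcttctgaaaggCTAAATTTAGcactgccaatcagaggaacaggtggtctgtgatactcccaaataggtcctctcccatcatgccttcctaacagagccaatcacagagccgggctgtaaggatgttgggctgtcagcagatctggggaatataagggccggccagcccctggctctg

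Both strands were searched, and positions count back from -1, the base before the start. The MEF2 box began at -74 in *Xirp2* and -166 in *Ttn*, and the CArG box at -99 in *Myom1*. Over all 14 windows of the members, a MEF2 box was also present in *Myoz2*, where it began at -33, and CArG boxes in *Nebl* and *Ldb3*, and no window held both kinds. The M-CAT letters CATTCC were found in 1 window each of *Nebl* and *Flnc*. Of 32851 RefSeq windows of this length, 2.92% held a MEF2 box, 1.47% a CArG box and 12.6% the letters CATTCC. A match describes the letters only.

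The first question was how abundant the members were relative to each other. Titin was by far the most counted transcript, with the highest value of all 21776 genes and 2.34 to 2.89% of each library. It made up 81.0 to 82.6% of the summed values of the 9 members. Since the merged exons of *Ttn* cover 116.8 kb, including exons that the cardiac isoforms may not use, levels of different genes were compared per kilobase of merged exons. On that scale *Ttn* was 9th of 21726 genes with an exon length.

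Per exonic kilobase the order was *Ttn*, *Xirp2*, *Tcap*, *Ldb3*, *Myom1*, *Csrp3*, *Myoz2*, *Flnc* and *Nebl*. The level of *Ttn* was 644 ± 13.3 in KO against 727 ± 75.2 in WT (SD, n = 3 each). *Xirp2* was next at 495 ± 18.3 in KO and 576 ± 31.3 in WT, and was below *Ttn* in all 6 libraries. *Tcap*, whose count was at most 431 in each library, stood in 3rd place at 436 ± 18.5 in KO and 404 ± 27.5 in WT. These 3 genes kept their places in every library, and their ranges over the 6 libraries did not overlap between neighbours.

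The lower places were less distinct. *Ldb3* was at 321 ± 4.03 in KO and 336 ± 16.2 in WT, and *Myom1* at 299 ± 5.18 and 332 ± 28.6 (SD, n = 3 each). *Ldb3* exceeded *Myom1* in 4 of 6 libraries, so this pair had no fixed order. *Csrp3*, *Myoz2*, *Flnc* and *Nebl* lay between 163 and 247 over all libraries, with overlapping ranges between neighbours. *Nebl*, with 2581 reads in KO and 2753 in WT on the normalised count scale, thus came last per kilobase. Its merged exons cover 15.2 kb over 13 transcripts, so this place may depend on exons that the heart does not use.

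**Figure D1:**
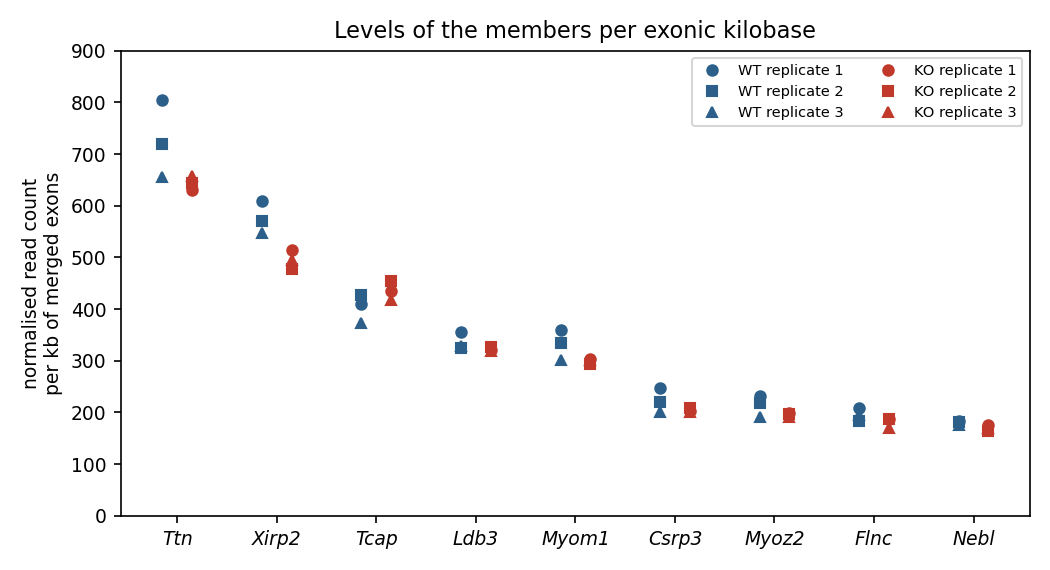
Level of each member in normalised read counts per kilobase of merged exons, for 3 WT hearts (blue) and 3 KO hearts (red). Ttn stands highest at 631 to 805, and the 4 genes on the right lie together between 163 and 247.

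The main question was whether the members differed between KO and WT hearts. With limma on log2(value + 1) and Benjamini-Hochberg adjustment over 13753 genes, 0 of the 9 members had an adjusted p under 0.05, against 4 genes or 0.0291% of all genes tested, and 0.00727% that were called lower. By limma-voom the count was 0 as well. At an unadjusted p under 0.05 there were 3 members, *Xirp2*, *Myom1* and *Ttn*, all lower in KO, where 5.74% of all genes tested were under this p and 2.8% were so and lower. The fitted log2 fold change was below 0 for 8 of 9 members, as for 49.4% of all genes tested, and its median was -0.12 against 0.00165 over all genes. The values of the genotypes were fully separate for 2 members, *Xirp2* and *Nebl*, both lower in KO, where 9.07% of all genes did not overlap and 4.44% did not and were lower.

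The counts at an unadjusted p under 0.05 and without overlap turned on single libraries. With each library left out in turn, 0 members were called and 8 of 9 had a log2 fold change below 0. WT replicate 1 was the highest library for 8 of 9 members, and for *Tcap* the highest was KO replicate 2. The members at an unadjusted p under 0.05 numbered 6 without WT replicate 3 and 1 without WT replicate 1, KO replicate 2 or KO replicate 3. Over all genes 790 were under this p with all libraries, 1182 without WT replicate 3, 600 without WT replicate 1, 641 without KO replicate 2 and 507 without KO replicate 3. Members whose groups were separate numbered 6 when WT replicate 3 was left out, 5 for WT replicate 2 and 4 for KO replicate 3, while over all genes 3158, 2390 and 2212 then did not overlap against 1248 with all libraries. The median of the members was -0.20 without WT replicate 3 and -0.07 without WT replicate 1.

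**Figure D2:**
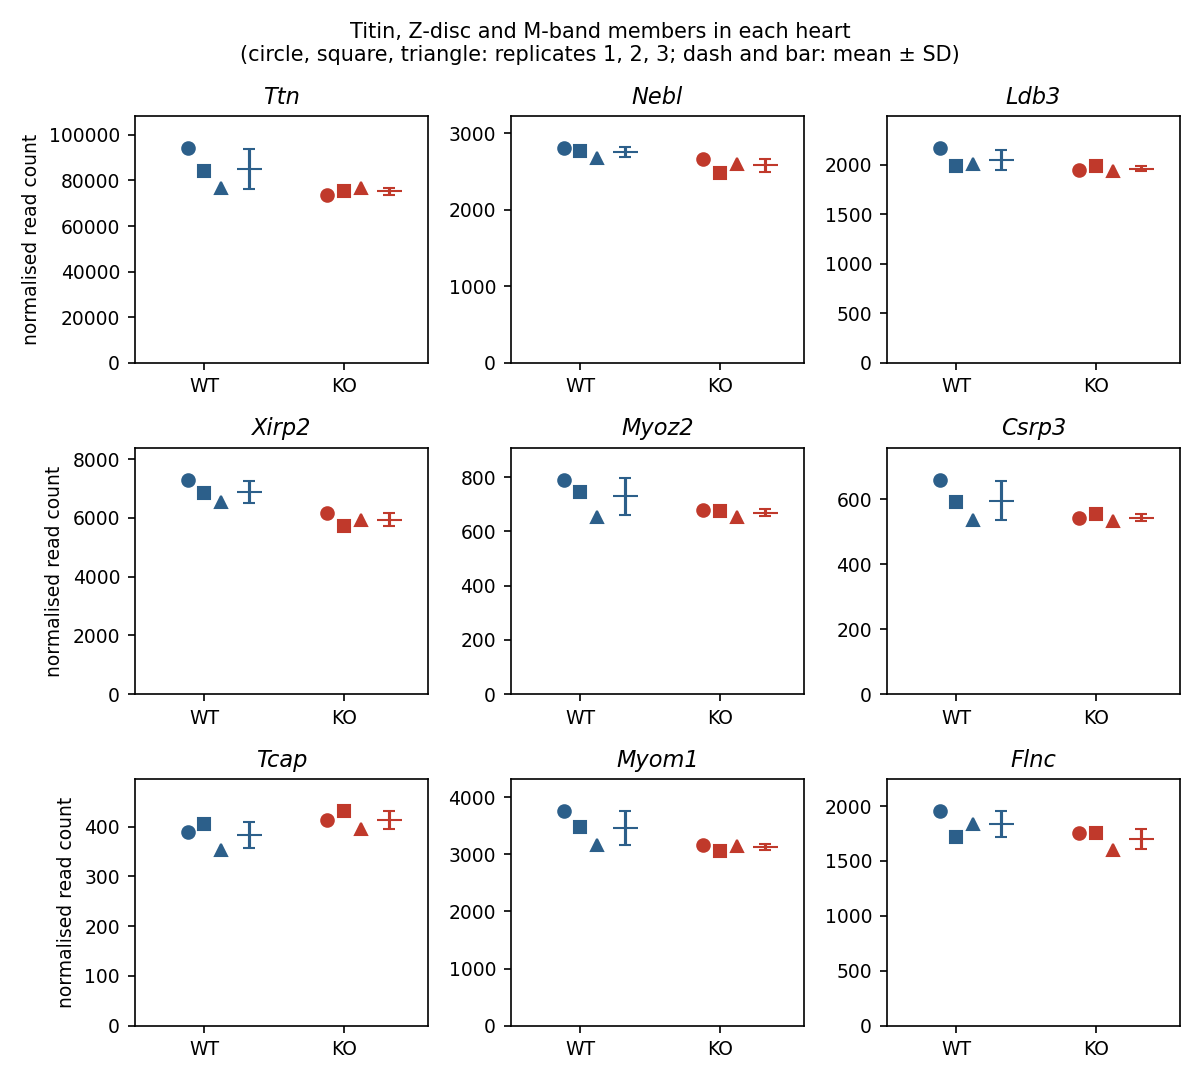
Normalised read counts of the 9 members in each heart, WT in blue and KO in red, with the mean ± SD of each genotype beside the 3 points and a vertical axis from 0 in each panel. Xirp2 and Nebl are without overlap, WT replicate 1 (circle) is the highest point in 8 panels, and Tcap is the panel with the higher mean in KO.

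Titin itself comes first. *Ttn* (ENSMUSG00000051747, chr2:76703980-76982547, minus strand) was counted at 73738, 75179 and 76849 in KO and 94044, 84042 and 76522 in WT. WT replicates 1 and 2 stood above all KO hearts, while WT replicate 3 lay among them, so the groups overlapped. The mean of *Ttn* was 75255 ± 1557 in KO against 84869 ± 8790 in WT (SD, n = 3 each). The log2 fold change was -0.17 (SE 0.07, 95% interval -0.32 to -0.01), with an unadjusted p of 0.0361 and a limma adjusted p of 0.851. Without WT replicate 1 it was -0.09, and of the fits that left out 1 heart, the one without WT replicate 3 alone kept an unadjusted p under 0.05, at -0.24. With all hearts, the SE and p of the unchanged fold change depended on the filter and the trend. The unadjusted limma p was 0.00304 (SE 0.05) with no filter beyond a total of 1. It was 0.117 (SE 0.10) with at least 10 in every sample and 0.126 (SE 0.10) without the trend.

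Of the Z-disc members, *Xirp2* had the largest difference between genotypes on the deposited scale. Relative to cardiomyocyte markers or after a correction for read density, both given below, *Tcap* had the largest. *Xirp2* (ENSMUSG00000027022, chr2:67446002-67526614, plus strand) encodes an actin-binding repeat protein of Z-discs and intercalated discs, where cardiomyocytes join. Normalised read counts of *Xirp2* were 6151, 5712 and 5939 in KO and 7295, 6840 and 6551 in WT. Every KO heart was below every WT heart, and the mean of 5934 ± 220 in KO was lower by more than either SD than the 6895 ± 375 in WT (SD, n = 3 each). The log2 fold change was -0.22 (SE 0.06, 95% interval -0.33 to -0.10), with an unadjusted p of 9.16e-04, the 23rd smallest of the genes tested, and a limma adjusted p of 0.518. Leaving out each heart in turn gave log2 fold changes from -0.25 to -0.17, and the adjusted p ranged from 0.0712 to 0.999 over all alternatives tried.

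*Nebl* (ENSMUSG00000053702, chr2:17343909-17731043, minus strand) encodes nebulette, the cardiac relative of nebulin that ties actin filaments to the Z-disc. *Nebl* was at 2664, 2487 and 2593 in KO and at 2802, 2775 and 2683 in WT. The groups did not overlap, although KO replicate 1 and WT replicate 3 lay only a little apart. For *Nebl* the log2 fold change was -0.09 (SE 0.05, 95% interval -0.20 to 0.01), with a limma adjusted p of 0.868.

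*Ldb3* (ENSMUSG00000021798, chr14:34526699-34588681, minus strand) encodes the PDZ-LIM protein ZASP, or cypher, which binds alpha-actinin. *Ldb3* had values of 1953, 1989 and 1942 in KO and 2166, 1986 and 2005 in WT. WT replicate 1 alone stood apart, and the other hearts of both genotypes lay close together. The log2 fold change of *Ldb3* was -0.06 (SE 0.05, 95% interval -0.18 to 0.05), the smallest in size among the members, with a limma adjusted p of 0.918, and it was -0.02 without WT replicate 1.

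*Flnc* (ENSMUSG00000068699, chr6:29433276-29461883, plus strand) encodes filamin C, an actin cross-linker at Z-discs and the cell membrane that also binds *Xirp2* protein. *Flnc* was at 1755, 1752 and 1597 in KO and 1953, 1723 and 1838 in WT. WT replicate 2 was below KO replicates 1 and 2, so the groups overlapped. For *Flnc* the difference on the log2 scale was -0.11 (SE 0.06, 95% interval -0.24 to 0.01), with a limma adjusted p of 0.861. It was -0.07 without WT replicate 1 and also without KO replicate 3.

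The next 3 genes encode small proteins of the Z-disc linked to signalling and stretch. *Myoz2* (ENSMUSG00000028116, chr3:123006206-123035015, minus strand) encodes calsarcin-1, which binds calcineurin, and was at 678, 675 and 653 in KO and 790, 744 and 654 in WT. *Csrp3* (ENSMUSG00000030470, chr7:48830398-48848033, minus strand) encodes muscle LIM protein and was at 541, 555 and 534 in KO and 659, 590 and 537 in WT. In both genes WT replicates 1 and 2 were above all KO hearts and WT replicate 3 lay among them, as for *Ttn*. The log2 fold change was -0.12 for *Myoz2* (SE 0.07) and -0.13 for *Csrp3* (SE 0.07), both with a limma adjusted p of 0.879. Without WT replicate 1 these values were -0.06 and -0.05, and without WT replicate 3 they were -0.20 for both.

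*Tcap* (ENSMUSG00000007877, chr11:98383811-98384953, plus strand) encodes telethonin, which joins the ends of titin molecules in the Z-disc and also binds *Csrp3* protein. *Tcap* had values of 413, 431 and 396 in KO and 389, 405 and 354 in WT. KO replicate 2 was the highest and WT replicate 3 the lowest, and the groups overlapped through WT replicate 2 and KO replicate 3. *Tcap* had a log2 fold change of 0.11 (SE 0.07, 95% interval -0.04 to 0.26), with a limma adjusted p of 0.892, and was at 0.06 without WT replicate 3. The libraries held an estimated 309 to 475 reads of *Tcap*, and counting alone gives a coefficient of variation of 5.69% at the fewest reads, where the spread between hearts was 4.23% in KO and 6.82% in WT. For *Ttn* the same values were 0.366% for counting, 2.07% in KO and 10.4% in WT.

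At the M-band, *Myom1* (ENSMUSG00000024049, chr17:71019521-71126856, plus strand) encodes myomesin 1, which cross-links myosin filaments and binds the M-band end of titin. *Myom1* was at 3165, 3067 and 3156 in KO and 3756, 3488 and 3158 in WT. The KO hearts lay close together, and the overlap rested on WT replicate 3, which was just below KO replicate 1. *Myom1* had a log2 fold change of -0.14 (SE 0.06, 95% interval -0.27 to -0.02), with an unadjusted p of 0.0248 and a limma adjusted p of 0.851. Without WT replicate 1 it was -0.08, with an unadjusted limma p of 0.121.

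Since 8 members were lower in KO and *Tcap* was higher, each member was next set against *Ttn* within the same library, a ratio that does not depend on library scaling. Per 1000 *Ttn* values, *Tcap* was at 5.60, 5.73 and 5.15 in KO and 4.14, 4.82 and 4.63 in WT. All KO hearts were above all WT hearts, with means of 5.50 ± 0.304 and 4.53 ± 0.352 (SD, n = 3 each), a ratio of 1.215. The exact two-sided permutation test gave p = 0.1, the smallest that 3 against 3 hearts can give, and 0.64 after Benjamini-Hochberg adjustment over 8 ratios. The other 7 ratios overlapped between genotypes. Over 13752 genes set against *Ttn* in the same way, 21.7% did not overlap and 21.3% did not and were higher in KO, so 1 of 8 members without overlap was not above the background. *Xirp2* was at 78.9 ± 3.97 per 1000 *Ttn* in KO and 81.5 ± 4.02 in WT (SD, n = 3 each), with an exact permutation p of 0.5, and the hearts of both genotypes were mixed. *Myom1*, which binds titin at the M-band, was at 41.6 ± 1.16 and 40.9 ± 0.844 per 1000 *Ttn*, and *Csrp3* at 7.22 ± 0.238 and 7.01 ± 0.00682.

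Depth was set beside the level of the members. Their summed values were 91058, 91847 and 93659 in the KO hearts, by replicate number, and 113854, 102593 and 94302 in the WT hearts. Within each genotype the library with fewer reads had the higher sum, but *Ttn* made up most of it. Without *Ttn* the sums of the other 8 members were 17320, 16668 and 16810 in KO and 19810, 18551 and 17780 in WT, so this order held in WT, while in KO the deepest library was the highest. On the estimated read scale, *Ttn* had 84725, 79464 and 77233 reads in KO and 74774, 80226 and 84404 reads in WT. WT replicate 3 had 1.387 times the size factor of WT replicate 1, and its reads were 1.387 times higher at the median gene, but 1.129 times for *Ttn*, 1.13 for *Csrp3*, 1.148 for *Myoz2*, 1.166 for *Myom1*, 1.246 for *Xirp2* and 1.262 for *Tcap*. *Ldb3*, *Flnc* and *Nebl* were nearer to the median gene, at 1.284, 1.306 and 1.328. Between KO replicates 1 and 3 the same ratio was 1.143 at the median gene, and 8 of 9 members were above it, from 1.147 for *Myom1* to 1.256 for *Flnc*, while *Ttn* was below it at 1.097.

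Duplicate reads had been removed before counting, and *Ttn* held 64.0 to 72.5 estimated reads per 100 exonic bases, the densest of the members, against 48.4 to 60.3 for *Xirp2* and 14.6 to 20.1 for *Nebl*. The part of duplicate removal in these ratios was not tested. With log2 depth as a covariate, chosen after seeing the data, the log2 fold change was -0.06 for *Ttn* (SE 0.03) and -0.17 for *Xirp2* (SE 0.04), with limma adjusted p-values of 0.826 and 0.388. With a correction for read density per exonic kilobase it was -0.03 for *Ttn*, -0.09 for *Xirp2* and 0.22 for *Tcap*, with limma adjusted p-values of 0.887, 0.797 and 0.775, and 0.03 for *Ldb3*, which thereby changed sign. This correction subtracts, in each library, the trend over genes of similar density, so it also removes any genotype difference that such genes share. *Ttn* and *Xirp2* were 9th and 20th of 21726 genes in level per kilobase, at the dense end of that trend.

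**Figure D3:**
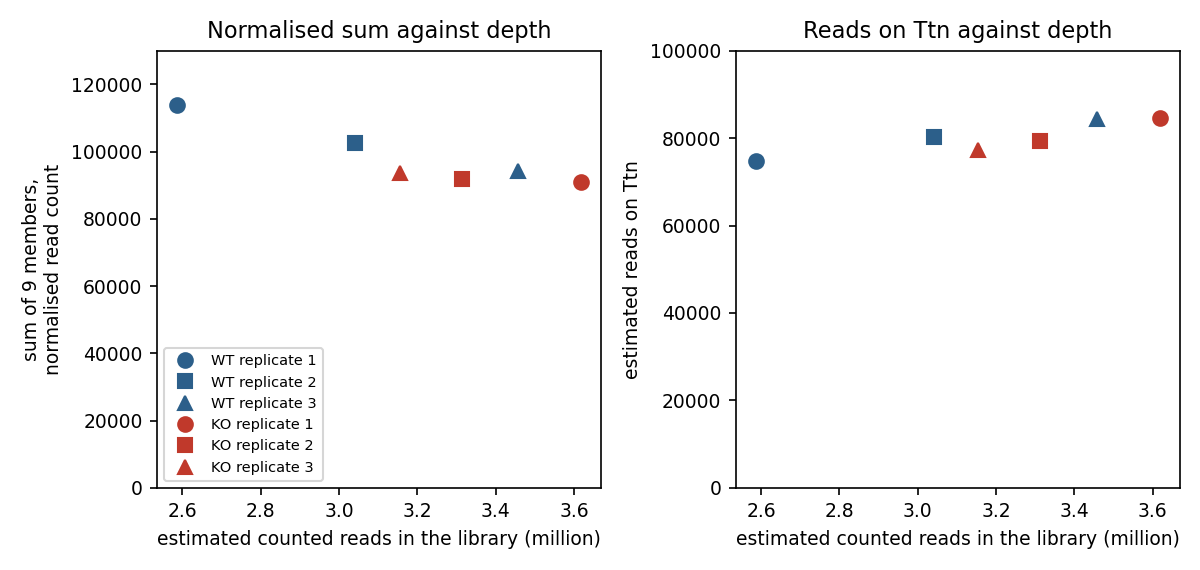
Summed normalised read counts of the 9 members (left) and estimated reads on Ttn (right) against the estimated counted reads of each library in M, with both vertical axes from 0. WT replicate 1, with the fewest reads, has the highest sum at 113854 and the fewest reads on Ttn at 74774.

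Cardiomyocyte markers had the same direction as most members. All 10 had a log2 fold change below 0, with a median of -0.16. At an unadjusted limma p under 0.05 there were 6, all lower in KO. Of all genes tested, 5.74% were under this p and 2.8% were so and lower. After adjustment 0 of the 10 passed, with a smallest limma adjusted p of 0.851, and the genotypes overlapped for each marker. WT replicate 1 had the highest summed value, 20628. Relative to these markers, 2 of 9 members, *Ttn* and *Xirp2*, were lower in KO, at log2 fold changes of -0.02 (SE 0.03) and -0.07 (SE 0.07). On this scale all genes had a median of 0.15, and 1833 of 13745 genes were lower. *Tcap* was at 0.26 (SE 0.12), with an unadjusted p of 0.0366 and a limma adjusted p of 0.590, and its groups did not overlap. On the same scale 1115 of the 13745 genes had an unadjusted p under 0.05 and 1945 did not overlap, 1876 of them higher in KO. *Nebl*, *Ldb3*, *Myoz2*, *Csrp3*, *Myom1* and *Flnc* then had values of 0.00557 to 0.09, above 0 but below the median gene, so the direction of these 6 genes depended on the scaling.

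Markers of other cell types overlapped between genotypes in their summed values. Fibroblast markers summed to 3498 to 3958 in KO and 3700 to 3970 in WT, and endothelial markers to 3732 to 4305 and 3757 to 4224. Smooth muscle markers summed to 1957 to 2099 in KO and 2035 to 2244 in WT, macrophage markers to 1055 to 1375 and 1156 to 1233, blood markers to 164 to 304 and 151 to 423, and atrial markers to 512 to 781 and 551 to 692. No gene of these 6 lists was at 0 in all libraries. The part of cell composition in the values of the members was not tested beyond the scaling to cardiomyocyte markers.

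**Figure D4:**
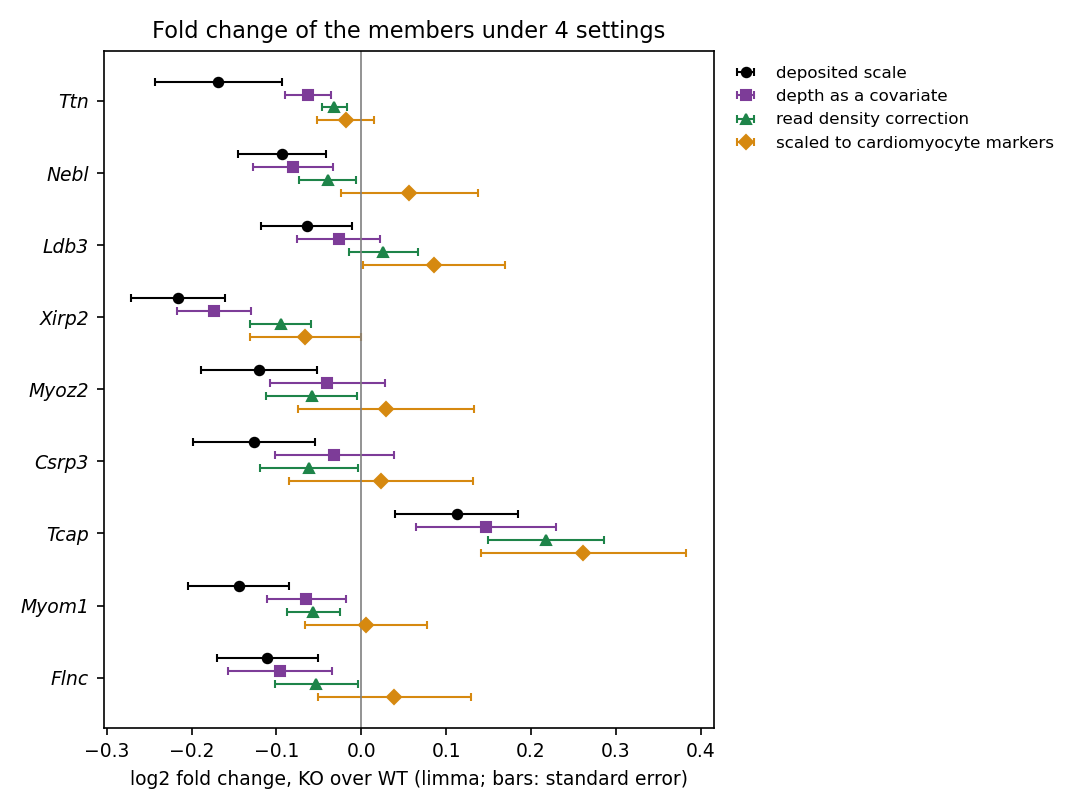
Log2 fold change (KO over WT, limma) of each member with its standard error on the deposited scale (black), with depth as a covariate (purple), after the read density correction (green) and scaled to cardiomyocyte markers (orange). Ttn moves from -0.17 on the deposited scale to -0.02 relative to cardiomyocyte markers, Xirp2 stays below 0 and Tcap above 0 in all 4.

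The genes around the members were read from a list of 38 other genes of the Z-disc, the M-band, the titin I-band and titin splicing. Of 37 tested, 34 had a log2 fold change below 0, as for 49.4% of all genes tested. Their median was -0.10, and -0.06 without WT replicate 1. Relative to cardiomyocyte markers, 5 were lower and 32 higher in KO, with a median of 0.05 against 0.15 over all genes. The direction of this list thus depended on the scaling. On the deposited scale 0 of these genes had a limma adjusted p under 0.05. At an unadjusted p under 0.05 there were 5, all lower in KO, and 6 by limma-voom, which also gave 0 at the adjusted threshold. The 5 became 16 without WT replicate 3, 10 without KO replicate 1, 3 without WT replicate 2, 1 without KO replicate 2 or KO replicate 3 and 0 without WT replicate 1. Over all genes, 790 were under this p with all libraries, 1182 without WT replicate 3, 1135 without KO replicate 1 and 600 without WT replicate 1. The groups did not overlap for 4 genes, *Speg*, *Trim55*, *Capzb* and *Pdlim1*, each lower in KO. Of all genes tested, 9.07% did not overlap and 4.44% did not and were lower. The 4 became 18 without WT replicate 3, 12 without KO replicate 1, 9 without KO replicate 3 and 1 relative to cardiomyocyte markers. Over all genes, 3158, 3107, 2212 and 1945 then did not overlap, against 1248 with all libraries.

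Among 23 other Z-disc genes, the 3 at an unadjusted p under 0.05 were *Cryab*, *Actn2* and *Des*. *Cryab*, a small heat-shock protein that protects titin and desmin, was at 422, 417 and 437 in KO and 545, 517 and 425 in WT, a log2 fold change of -0.21 (SE 0.08). *Actn2*, the alpha-actinin that cross-links actin and anchors titin in the Z-disc, was at 1970, 1944 and 1975 in KO and 2422, 2176 and 1933 in WT, with -0.14 (SE 0.07). *Des*, the intermediate filament protein desmin that links neighbouring Z-discs, was at 1340, 1310 and 1371 in KO and 1630, 1452 and 1353 in WT, with -0.14 (SE 0.06). In each of them WT replicates 1 and 2 were the highest hearts. WT replicate 3 lay among the KO hearts for *Cryab* and *Des* and below all of them for *Actn2*. Their limma adjusted p-values were 0.807, 0.851 and 0.851.

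Among 9 other M-band genes, *Trim55*, a muscle ring-finger protein bound to the M-band part of titin, was at 560, 533 and 535 in KO and 631, 592 and 592 in WT. All KO hearts were below all WT hearts. The difference was -0.16 on the log2 scale (SE 0.06), with a limma adjusted p of 0.841. Of the titin I-band partners, the protease gene *Capn3* was low, at 20, 9 and 13 in KO and 28, 20 and 18 in WT. It differed by -0.66 on the log2 scale (SE 0.30), with a limma adjusted p of 0.851. The difference of *Capn3* was -0.40 without KO replicate 2 and -0.93 without KO replicate 1. The titin splicing regulators *Rbm20* and *Rbm24* had log2 fold changes of -0.07 (SE 0.06) and -0.08 (SE 0.07), with limma adjusted p-values of 0.931 and 0.921. Exons of *Ttn* were not resolved in the table, so isoforms were not analysed here.

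**Figure D5:**
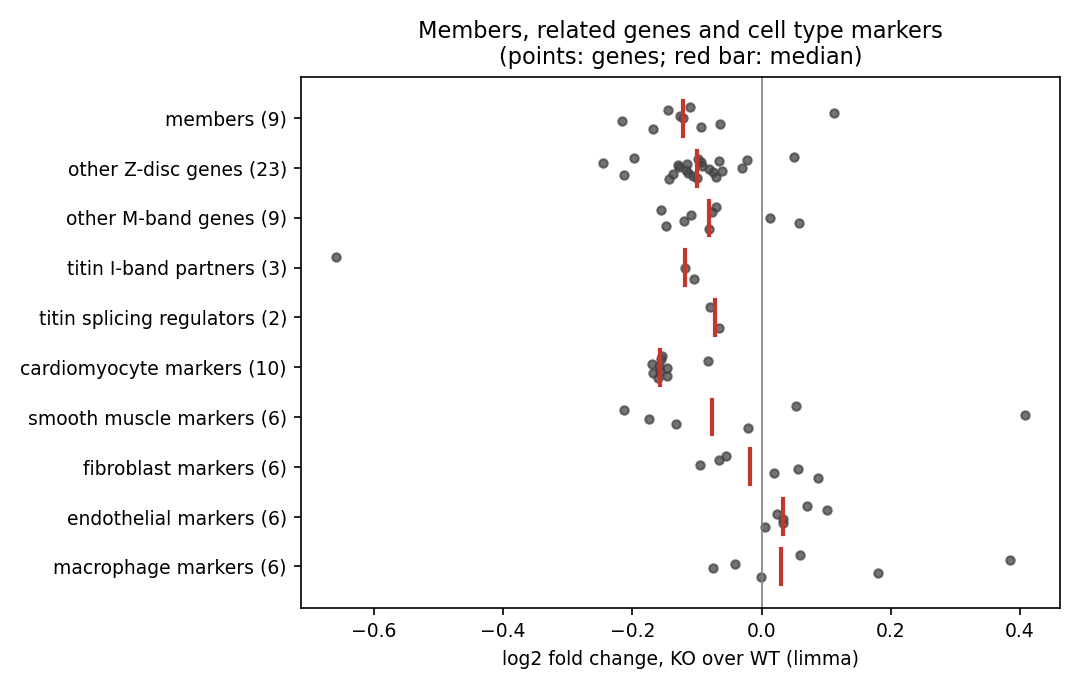
Log2 fold change (KO over WT, limma) of the tested genes of each list, one point per gene, with the median as a red bar and the number of genes in brackets. The members centre on -0.12, the other Z-disc genes on -0.10, the cardiomyocyte markers on -0.16 and the endothelial markers on 0.03.

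Over the 6 hearts, the mean centred log2 value of the 9 members was -0.04, -0.05 and -0.07 in the KO hearts and 0.15, 0.05 and -0.04 in the WT hearts, by replicate number. WT replicate 3 thus lay with the KO hearts. Of 6987 genes outside the lists with a mean of at least 100, those with the highest Pearson r to this pattern were *Atp5e* (0.993), *Mn1* (0.990), *Calr* (0.990), *Pgk1* (0.990) and *Ndrg2* (0.989). *Calr*, the gene of the calcium-binding chaperone calreticulin, was at 707, 691 and 679 in KO and 821, 758 and 683 in WT. These values are descriptions over 6 points that share library and depth.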

How the data were processed

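Each value of the deposited table is a score, namely a read count that the authors divided by a DESeq2 1.18.1 size factor and rounded, so a count model was not used. Upstream, the authors trimmed reads (Trimmomatic 0.39), aligned them to GRCm38 (STAR 2.6.1d), removed duplicates (Picard 2.21.1), multi-mapping, ribosomal and mitochondrial reads, and counted exonic reads by strand and of 1 gene only (featureCounts 1.6.5). Exons of the members shared no bases with other genes of their strand in GENCODE M21, from which merged exon lengths were taken for 99.8% of genes.

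The genotypes were tested against each other for 13753 genes with a mean of at least 10, using log2(value + 1) in limma 3.58.1 (R 4.3.3) with a mean-variance trend. Tests were two-sided, p-values were adjusted by Benjamini-Hochberg, and the threshold was 0.05. Size factors were estimated from the skipped and repeated whole numbers that division leaves, and this step and the limma fit were tested on simulated data. Ratios to *Ttn* were tested by exact permutation (scipy 1.17.1). Counting errors cover counting alone, as no molecular identifiers entered the counting. The members and gene lists were chosen with earlier results of these data known. Genes named are the members, genes of the Z-disc, M-band, titin and paralog lists with an adjusted or unadjusted p under 0.05, the 5 genes most like the members, and *Trdn* and *Trdn-as*. *Rbm20*, *Rbm24*, *Speg*, *Capzb*, *Pdlim1* and the paralogs in the closing section were named beyond this rule, after their values had been seen. Alternatives were 3 scalings, 2 filters, a pseudocount of 0.1, limma-voom, limma without the trend, a replicate block, a threshold of 0.01, a loess correction for read density, depth as a covariate and leaving out each library.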

Additional observations from a re-analysis of the deposited data

How the results depend on the processing

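None of the 9 members or the other related genes passed an adjusted p of 0.05 under any of the 18 alternatives. *Xirp2* and *Ttn* were lower in KO and *Tcap* was higher under all 18. Scaled to cardiomyocyte markers, the log2 fold change was 0.0567 for *Nebl*, 0.0856 for *Ldb3*, 0.0290 for *Myoz2*, 0.0230 for *Csrp3*, 0.00557 for *Myom1* and 0.0391 for *Flnc*. The median of the members was then 0.0290, 2 members were lower in KO, 1 was without overlap and 1 was at an unadjusted p under 0.05. Limma without the trend also left 1 member at that p, which 780 of all genes then passed, against 790 before. After the density correction *Ldb3* was at 0.0262, and the log2 ratio to *Ttn* was -0.00819 for *Nebl*, -0.0269 for *Myoz2*, -0.0303 for *Csrp3*, -0.0248 for *Myom1* and -0.0216 for *Flnc*. The 5 other related genes at an unadjusted p under 0.05 became 2 with total scaling, 2 with the density correction, 3 with depth as a covariate, and 0 with cardiomyocyte scaling or limma without the trend, while all genes at that p numbered 823, 769 and 768 with the first 3 of these and 1115 with cardiomyocyte scaling. Over all genes, 4 calls became 2 with at least 10 in every sample, 2 at a threshold of 0.01 and 1 without the trend. The cause of these shifts was not tested.

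Leaving out each library in turn gave 2 to 6 members without overlap, 1 to 6 members and 0 to 16 related genes at an unadjusted p under 0.05, and 2 to 32 calls over all genes, the 32 without KO replicate 1. Total scaling put 5737 genes lower and 8004 higher in KO, against 6788 and 6965 on the deposited scale, with 8 of 9 members lower on both. Replicates of the same number did not deviate together over all genes (correlations of 0.05, -0.07 and -0.03). Such correlations cannot show whether hearts of the same number were paired, for example by litter. With the replicate block, 0 members and 4 genes in all were called, and the limma adjusted p of *Xirp2* was 0.362. With 3 hearts a group, the differences of the members on the deposited scale, at most 0.22 in size on the log2 scale with all libraries, did not pass after adjustment.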

Other observations

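Relatives of the members were also read. Of 11 paralogs, 9 were tested, 4 of them also among the Z-disc and M-band genes above, with 4 lower and 5 higher in KO, a median log2 fold change of 0.00382, and 0 at an unadjusted p under 0.05 by limma. *Xirp1*, the relative of *Xirp2* at intercalated discs, was at 1161, 1103 and 1059 in KO and 1093, 1039 and 1075 in WT, a log2 fold change of 0.05 (SE 0.06) with a limma adjusted p of 0.945. Its groups overlapped, and its difference from *Xirp2* was not tested. *Neb*, the nebulin of skeletal muscle, was at 338 to 497 over the 6 hearts. *Myom2*, the myomesin of adult heart and fast muscle, was at 2944, 2684 and 2824 in KO and 3654, 3184 and 2608 in WT, and its difference was -0.15 on the log2 scale (SE 0.08), with a limma adjusted p of 0.870. WT replicate 1 was its highest heart, as for *Myom1*, and WT replicate 3 lay below all KO hearts. The lower KO mean of *Myom2* thus rested on WT replicates 1 and 2. *Myom3* was at 34 to 49 in all hearts, and *Myoz1*, a calsarcin of skeletal muscle, was at 0 to 2. *Flna*, a filamin of other cells, had a log2 fold change of -0.10 (SE 0.07).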
